A study of Mus musculus with 12 samples.

Results

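RNA from mouse skin wounds that healed under a patch that stretched the tissue was compared with RNA from wounds under the same kind of patch without the stretch. The libraries were chosen by their group label, which gave 4 strain-patch and 3 no-strain-patch libraries, 7 of the 12 in the series, and every gene of their count files entered the comparison. All mice were male Lepr (db/db) animals on the C57BLKS/J background, 12.5 weeks old, which lack a working leptin receptor, are obese and diabetic, and heal slowly. Each wound was a full-thickness 6 mm punch through dorsal skin. It received a patch made to impose about 30% strain, a patch that imposed none, or a Tegaderm film dressing alone (TD, 5 libraries), and was collected on day 10. The film libraries shared the estimate of spread and are given as a reference level. Diabetes was common to all 3 groups, and no unwounded or non-diabetic skin is used here. The labels do not say whether wounds came from separate mice, so the p-values measure the spread between these samples, which may in part be technical.

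Cells sense stretch through channels such as Piezo1, through integrins and focal adhesions that tie the matrix to the actin cytoskeleton, and through regulators of transcription that enter the nucleus under tension. The best known of these are YAP and TAZ, which act with TEAD factors, and the MRTF cofactors of SRF, which respond to free actin. In skin wounds, tension is known to favour myofibroblast differentiation, collagen deposition and keratinocyte proliferation.

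The comparison covered 18618 genes with enough counts out of 54232 in the files. The 7 patch libraries held 20354677 to 25059371 counts assigned to genes. No pair of libraries within a group matched within sampling noise (chi-square per degree of freedom 43.1 to 75.3 over 9 pairs). Markers of keratinocytes, fibroblasts, endothelium, macrophages, neutrophils, fat, muscle, Schwann cells and melanocytes, 25 genes in all, were present in all 7 libraries, the lowest at 2.18 CPM (read counts scaled to a common library size). Levels below are CPM scaled by trimmed mean of M values (TMM), and a log2 fold change is strain minus no strain. Transcripts of liver separated the libraries by group and within the strain group, as described further on with the results they touch.

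The genes nearest to a difference were Myh8, the perinatal myosin heavy chain of immature muscle, and Papln, which encodes the extracellular matrix protein papilin, related to the ADAMTS proteases. The 250 bases upstream of both start sites are shown because these 2 genes had the smallest p of the comparison, 1 in each direction. Both come from RefSeq on GRCm38.p6, plus strand, at chr11:67276874-67277123 for Myh8 and chr12:83763384-83763633 for Papln. Capitals mark the E-box CANNTG, the element bound by myogenic regulators, searched on both strands together with the TEAD element GGAATG.
Myh8: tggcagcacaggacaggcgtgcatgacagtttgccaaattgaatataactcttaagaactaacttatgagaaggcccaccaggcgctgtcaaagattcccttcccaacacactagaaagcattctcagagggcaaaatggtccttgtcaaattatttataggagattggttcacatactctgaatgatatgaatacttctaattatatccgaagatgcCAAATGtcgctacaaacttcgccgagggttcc
Papln: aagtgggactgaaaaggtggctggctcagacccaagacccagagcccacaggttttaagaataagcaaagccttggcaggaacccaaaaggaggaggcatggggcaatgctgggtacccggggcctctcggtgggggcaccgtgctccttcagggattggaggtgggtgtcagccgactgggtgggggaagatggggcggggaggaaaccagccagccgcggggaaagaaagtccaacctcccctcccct
The Myh8 window held 1 E-box and no GGAATG. The Papln window held neither, whereas 66.2% of 32851 promoter windows of that length held an E-box and 12.6% held GGAATG.

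No gene was called different between the strain patch and the no-strain patch. In edgeR's quasi-likelihood test, 0 of 18618 genes had a Benjamini-Hochberg adjusted p under 0.05 (0% called), and the smallest adjusted p was 0.402, the value of Myh8, Papln and the plasma protein gene Apof among others. An unadjusted p under 0.05 was reached by 1045 genes, 523 with higher and 522 with lower levels under strain, where 930.9 would be counted if no gene differed. An unadjusted p under 0.001 was reached by 14, where 18.6 would be counted. DESeq2, another count test run on the same 12 libraries, called 28 genes at an adjusted p under 0.05 (0.15% called, 8 or 0.043% higher and 20 or 0.107% lower), and limma-voom called 0, with 772 at an unadjusted p under 0.05. When library totals alone set the scale, 72.0% of the genes at an unadjusted p under 0.05 lay on the higher side, against 50.05% with TMM, and the median of all genes moved from 0.01 to 0.05.

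Most genes differed little in level between the patches. The quartiles of the log2 fold changes were -0.10 and 0.14, and 5% of genes lay below -0.52 and 5% above 0.52. The median absolute value was 0.12. A change of 1 log2 unit or more in the estimate was seen for 505 genes (2.71%), 199 on the higher and 306 on the lower side. Among 12355 genes at 5 CPM or more the same counts were 30 and 88. The 4 strain values all lay above the 3 no-strain values for 531 genes (2.85%) and all below them for 515 (2.77%).

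The size of change that could have escaped was set by the 95% interval of each fold change, taken gene by gene without adjustment. The interval lay wholly within 1 log2 unit on either side of 0 for 14147 genes (76%), so that a 2-fold difference in either direction fell outside it. It lay within 0.5 log2 units for 8912 genes (47.9%). For the other 4471 genes at least 1 end of the interval went past 1 log2 unit, and a 2-fold difference was not excluded by it. The share of genes bounded in this way was 9.12% below 0.5 CPM, 67.6% from 1 to 5 CPM and 91.9% from 10 to 50 CPM. Whether a gene was bounded depended largely on its level, so counts of bounded list members below are read against these shares. No interval lay wholly above 1, and 11 lay wholly below -1, though edgeR called none of these after adjustment over 18618 genes. These 11 genes were named after their values were seen. They were the slow, cardiac or immature sarcomere genes Myh7, Myh6, Myl2, Myl3, Tnni1, Tnnc1 and Myh8, the antibody genes Ighv5-17 and Ighg1, the protease gene Mmp10 and the simple-epithelium keratin gene Krt18. The strain and no-strain values of Myh7, Myl2 and Mmp10 overlapped. The fold changes of Myh7, Myl2, Myl3, Tnnc1 and Mmp10 were smaller in size without no-strain replicate 3, as given below.

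A call needed a larger change than an interval does. For a single gene to be called alone among 18618, its unadjusted edgeR p had to be at most 2.69e-06, which at the median spread took a log2 fold change of 1.48 (2.78-fold). The median change needed was 4.26 log2 units below 0.5 CPM, 2.28 from 1 to 5 CPM, 0.95 (1.93-fold) from 10 to 50 CPM and 0.76 (1.69-fold) from 50 to 100 CPM. Above 100 CPM it was 0.88.

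**Figure D1:**
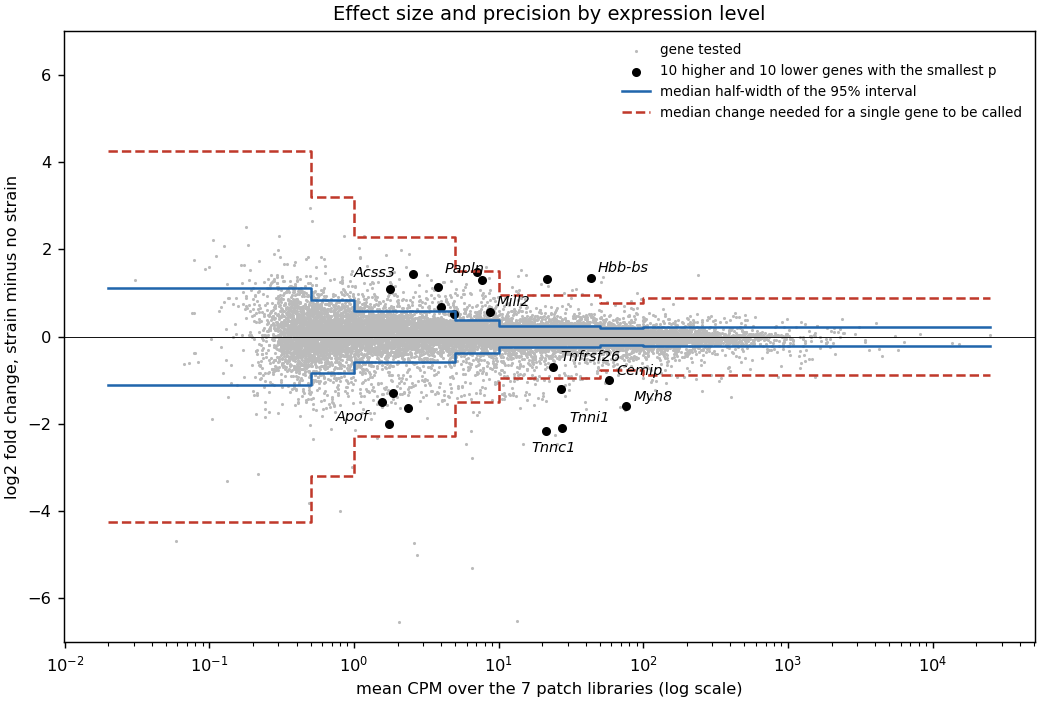
Log2 fold change, strain minus no strain, against mean CPM over the 7 patch libraries (log scale), with 1 grey point per gene tested and black points for the 20 genes named by smallest p. The blue line is the median half-width of the 95% interval and the red dashed line the median change a single gene needed to be called, which falls from 4.26 below 0.5 CPM to 0.95 between 10 and 50 CPM.

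No difference was detected in the stretch-sensing channels, most of which were bounded. Of the 14 listed channel genes, none passed the test and none reached an unadjusted p under 0.05. Their median log2 fold change was 0.03, against 0.01 over all genes tested. Bounded within 1 log2 unit were 13 of 14, against 76% of all genes and 91.9% of those from 10 to 50 CPM. Several genes in this and the next paragraphs, among them Piezo1, Piezo2, Trpv4, Yap1, Ccn1, Ccn2 and Ankrd1, were singled out after their values were seen. Piezo1, the pressure-gated cation channel, stood at 130, 130, 132 and 150 CPM in the strain libraries and at 131, 136 and 161 CPM in the no-strain libraries. Those ranges overlapped, and its log2 fold change of -0.07 had an interval from -0.32 to 0.17. Piezo2, the channel of touch neurons and Merkel cells, had a log2 fold change of -0.10 (-0.64 to 0.44), and the osmotically gated channel Trpv4 -0.05 (-0.43 to 0.33). Pkd2, a polycystin channel and the listed gene with the most counts, had -0.19 (-0.54 to 0.16). The gene left unbounded was the potassium channel gene Kcnk4, at 0.59 (-0.23 to 1.42).

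Genes of the Hippo pathway and its YAP and TAZ targets gave a similar picture. None of 24 passed the test, the median was -0.01, and 22 of 24 were bounded (76% of all genes). Yap1, the coactivator itself, stood at 117, 104, 125 and 107 CPM under strain and 112, 115 and 104 CPM without it, a log2 fold change of 0.04 (-0.14 to 0.21). Ccn2, the connective tissue growth factor and a standard YAP target, stood at 62.4, 91.4, 56.8 and 27.6 CPM under strain and 34.9, 67.9 and 76.7 CPM without it. Its log2 fold change was -0.01 with a wide interval, from -0.80 to 0.79, since both groups spread by more than 2-fold. The 2 targets that were not bounded were Ccn1, at -0.45 (-1.11 to 0.20), and Ankrd1, a stretch-responsive ankyrin protein of muscle. Ankrd1 stood at 17.7, 10.6, 87.0 and 32.6 CPM under strain and 41.8, 78.9 and 109 CPM without it, so that strain replicate 3 lay among the no-strain values. Its log2 fold change was -1.05 (-2.66 to 0.57).

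Focal adhesion and MRTF/SRF genes were the most tightly bounded of the mechanical lists. All 24 were bounded within 1 log2 unit (76% of all genes, 94.9% of those from 50 to 100 CPM). None passed the test, 19 of 24 had negative values (47.8% of all genes tested), and the median was -0.08. At an unadjusted p under 0.05 were 2 members, both on the lower side (2.8% of all genes). They were Mrtfa, the SRF cofactor, and Vasp, which promotes actin filament growth. Mrtfa stood at 45.9, 45.0, 45.6 and 45.6 CPM under strain and at 55.2, 47.4 and 54.2 CPM without it. The groups did not overlap, and the log2 fold change was -0.20 ± 0.08 (SE; edgeR adjusted p 0.872). Vasp had -0.20 ± 0.08 (adjusted p 0.872) with overlapping groups. Flna, the actin cross-linker with the most counts in the list, had -0.06 (-0.31 to 0.20).

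Myofibroblast and collagen genes did not pass the test either. Of 20 contractile genes 1, Tpm1, was at an unadjusted p under 0.05 on the lower side (2.8% of all genes). Tpm1 is an actin-binding tropomyosin also made by muscle. Of the 20 genes 17 were bounded (76% of all genes), and the median was -0.16. Acta2, smooth muscle actin and the usual myofibroblast marker, stood at 232, 162, 305 and 212 CPM under strain and 238, 290 and 313 CPM without it. These ranges overlapped, with a log2 fold change of -0.30 (-0.74 to 0.14). Of 26 genes of fibrillar collagen and its cross-linking, 0 reached an unadjusted p under 0.05. Bounded were 22 (76% of all genes), and the median was -0.07. Col3a1, the fibrillar collagen of early scar with the most counts in this list, stood at 26028, 20601, 21771 and 32951 CPM under strain and 23681, 27624 and 23150 CPM without it, a log2 fold change of 0.03 (-0.43 to 0.49). Col1a1, the main collagen of mature dermis, had -0.17 (-0.67 to 0.33). The collagen genes that stayed unbounded were Col12a1, Col5a3 and Col8a1, together with Plod2, which hydroxylates collagen lysines.

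Immediate early genes, which encode the fast transcriptional response to many stimuli, leaned lower without passing. Of 24, 0 were called, 6 were at an unadjusted p under 0.05 on the lower side (2.8% of all genes) and 0 on the higher side (2.81% of all genes), and the median was -0.16. Junb, an AP-1 subunit, stood at 183, 214, 135 and 159 CPM under strain and 211, 235 and 259 CPM without it. Strain replicate 2 exceeded the lowest no-strain library, and the log2 fold change was -0.45 ± 0.13 (SE; edgeR adjusted p 0.872). Zfp36, which destabilises cytokine mRNAs, had -0.42 ± 0.14, and the AP-1 subunit gene Fosl2 -0.26 ± 0.09, both with adjusted p 0.872. Fosl2 was at -0.13 without no-strain replicate 2. Fos and Egr1 were split within the strain group. Egr1 stood at 90.3 and 87.1 CPM in strain replicates 1 and 2 and at 45.7 and 43.7 CPM in replicates 3 and 4, against 84.7, 116 and 92.2 CPM in the no-strain libraries. Strain replicates 3 and 4 lay below every no-strain library and replicates 1 and 2 among them. The median of the list was -0.34 without strain replicate 2, -0.04 with strain replicates 1 and 2 alone and -0.38 with replicates 3 and 4 alone.

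**Figure D2:**
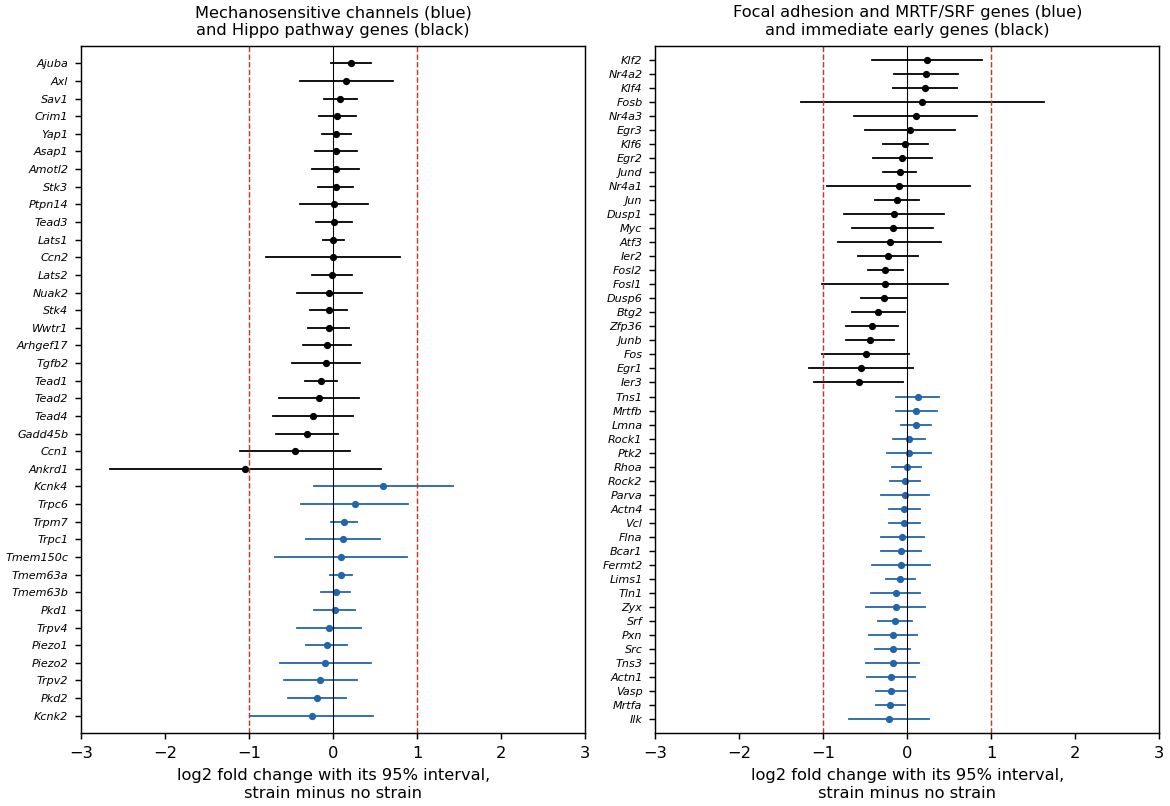
Log2 fold change, strain minus no strain (points), with its 95% interval (lines) for the listed channels and Hippo pathway genes at left and for focal adhesion, MRTF/SRF and immediate early genes at right; red dashed lines mark a 2-fold change. Most intervals stay inside the red lines, and Ankrd1 and Fosb have the widest.

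The 28 lists together held 597 tested genes, of which 0 were called, 84 (14.1%) were at an unadjusted p under 0.05 against 5.61% of all genes tested, and 359 (60.1%) were bounded against 76%. The lists were chosen with earlier results of these data known, so this excess is no independent evidence. The following paragraphs cover the groups with the largest medians or the most members at an unadjusted p under 0.05. They also cover lists with small medians and few or no such members.

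**Figure D3:**
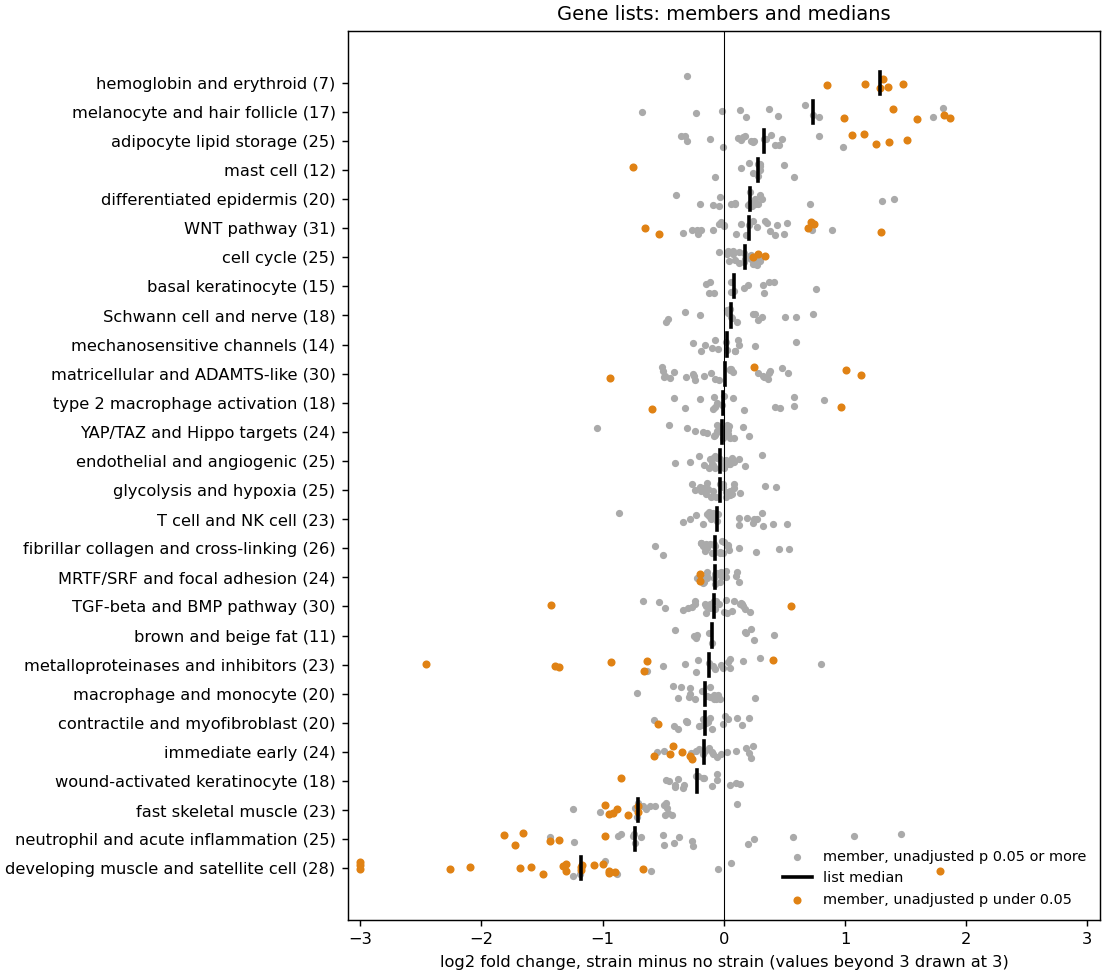
Log2 fold change, strain minus no strain, of every tested member of the 28 gene lists (number tested in brackets); black bars are list medians, orange points are members at an unadjusted p under 0.05, and values beyond 3 are drawn at 3. Medians run from -1.18 for developing muscle to 1.29 for hemoglobin, and the mechanical lists sit near 0.

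Genes of developing and slow muscle were the lowest group under strain. Of 28 tested, 26 had negative values (47.8% of all genes). At an unadjusted p under 0.05 were 20 on the lower side (2.8%) and 1 on the higher side (2.81%). All strain values lay below all no-strain values in 9 (2.77%). DESeq2 called 5 (0.15% of all genes), and edgeR called 0. The median was -1.18. Myh8 (ENSMUSG00000055775, chr11:67277124-67308634, GRCm38), whose promoter window is printed above, stood at 39.1, 42.5, 48.0 and 32.9 CPM under strain, at 130, 84.5 and 153 CPM without it and at 73.8 to 150 CPM under film. All 4 strain libraries lay below the other 8. The log2 fold change was -1.59 ± 0.24 (SE; edgeR adjusted p 0.402; DESeq2 adjusted p 6.19e-06), and it lay between -1.80 and -1.40 when any 1 patch library was left out. Myosin heavy chain genes share sequence, so the split of counts between them is uncertain. Tnni1, the slow skeletal troponin I, stood at 9.14, 7.52, 19.4 and 9.35 CPM under strain and 35.2, 31.5 and 79.2 CPM without it, with no overlap (-2.09 ± 0.40; edgeR adjusted p 0.696). Tnnc1, the slow and cardiac troponin C, and Casq2, the slow and cardiac calcium store protein of the sarcoplasmic reticulum, are not in this list. They were named by smallest p, with log2 fold changes of -2.16 ± 0.48 for Tnnc1 and -1.21 ± 0.28 for Casq2. Both had an edgeR adjusted p of 0.872 and no overlap, and Tnnc1 moved to -1.39 without no-strain replicate 3.

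No-strain replicate 3 stood apart in the slow and cardiac sarcomere genes. Myh7, the slow myosin heavy chain, stood at 4.95, 0.300 and 86.4 CPM in no-strain replicates 1, 2 and 3 and at 0.199, 0.0900, 0.273 and 0.767 CPM under strain. No-strain replicate 2 lay within the strain range and replicate 3 far above every other library. Its log2 fold change of -6.52 became -2.97 without that library. The slow myosin light chain genes Myl2 and Myl3 likewise moved from -5.30 to -2.21 and from -4.72 to -2.02. Ankrd2, a stretch-responsive gene of slow muscle, stood at 6.93, 6.01 and 70.6 CPM without strain and 2.63, 1.98, 11.8 and 3.64 CPM under strain, and moved from -2.46 to -0.36. The number of all genes at an unadjusted p under 0.05 moved from 1045 to 600 without no-strain replicate 3. Part of the exon sequence of Myh7 (13.3%) overlaps other genes, among them the antisense gene Mhrt, and no source used here says that counting used strand.

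Fast muscle genes, the mature program of the muscle layer under the skin, had a median of -0.71, which was -0.34 without no-strain replicate 3. Of 23 tested, 22 had negative values (47.8% of all genes), 7 were at an unadjusted p under 0.05 on the lower side (2.8% of all genes) and 0 were called. Casq1, the fast-fibre calcium store protein, stood at 41.9, 54.8, 57.7 and 42.5 CPM under strain and 100, 58.6 and 113 CPM without it, with no overlap but a gap of under 1 CPM (-0.88 ± 0.26; edgeR adjusted p 0.872). Acta1, skeletal actin, stood at 812, 827, 1705 and 1097 CPM under strain and 1686, 1283 and 3322 CPM without it, with overlap. The summed level of the list was 4123 to 8385 CPM under strain, 6379 to 13574 without it and 8601 to 21557 under film. With the mean level of this list as a covariate, the median of the developing muscle list was -0.76 and the log2 fold change of Myh8 was -1.17, and no gene was called. In bulk tissue, fewer cells of a type and less RNA per cell cannot be told apart, and the part that the amount of muscle in the sample had in these values was not tested.

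When the strain group was held to replicates 1 and 2, edgeR called 2 genes, Mymk, the membrane protein that fuses myoblasts (-2.24), and Myl4, the embryonic myosin light chain (-1.61), both with an adjusted p of 0.0473. The list median was then -1.66, and with strain replicates 3 and 4 alone it was -0.68. With all 4 strain libraries Mymk had -1.17 and Myl4 -0.95, both with an edgeR adjusted p of 0.872. Pax3, a regulator of muscle precursors and of melanocytes, went the other way from its list, at 0.497, 1.13, 0.545 and 0.527 CPM under strain against 0.135, 0.386 and 0.0465 CPM without it (1.78 ± 0.57; edgeR adjusted p 0.872). Its groups did not overlap, but the lowest value lies under the level of 3 counts in a library.

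Hemoglobin and other erythroid genes were the highest group under strain. Of 7 tested from a list of 10, 6 were at an unadjusted p under 0.05 on the higher side (2.81% of all genes). These 6 had no overlap between groups (2.85%), and DESeq2 called 4 of the 7 (0.15% of all genes). The median was 1.29, with 0 edgeR calls. Hba-a1, an alpha globin, stood at 18.1, 30.5, 44.5 and 23.0 CPM under strain and 12.7, 12.5 and 9.85 CPM without it (1.31 ± 0.27; edgeR adjusted p 0.872). Hbb-bs, a beta globin, stood at 36.9, 62.1, 90.6 and 44.5 CPM against 25.2, 26.4 and 17.1 CPM (1.35 ± 0.31; edgeR adjusted p 0.872). Every strain library exceeded every no-strain library for both genes. Hba-a2 and Hbb-bt had log2 fold changes of 1.48 and 1.29, but the paired globin copies are nearly identical and the split between them is uncertain. Alas2, the heme synthesis enzyme of erythroid cells, had 0.85. The summed level was 101 to 196 CPM under strain, 65.0 to 86.6 CPM without it and 129 to 168 CPM under film, so the strain libraries overlapped the film libraries and the no-strain libraries lay below both. The amount of blood in the samples was not measured and its part was not tested.

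**Figure D4:**
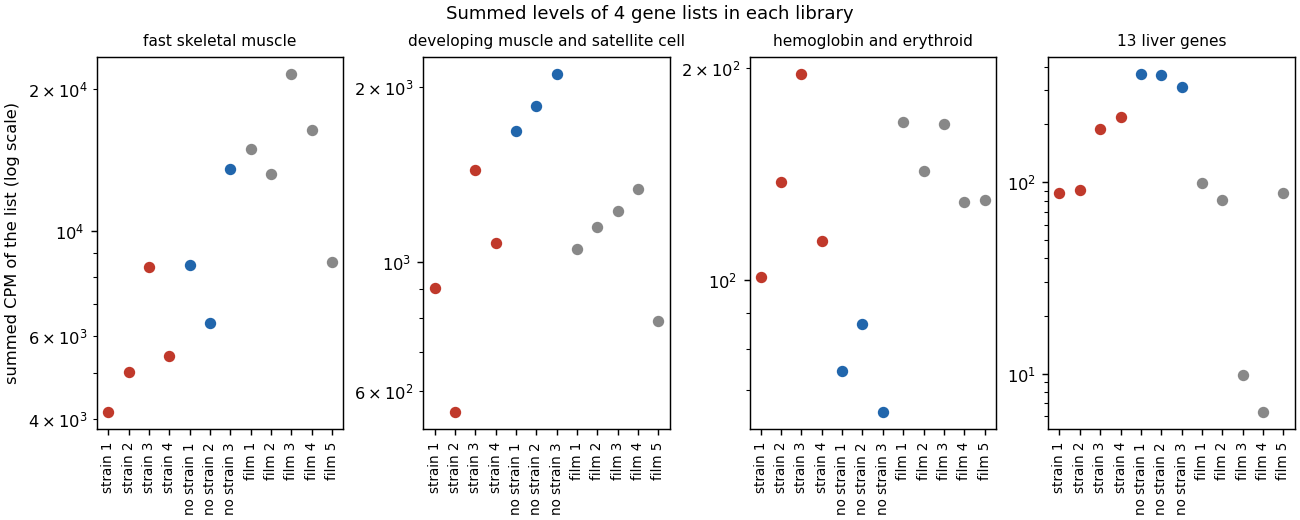
Summed CPM (log scale) of fast muscle, developing muscle, hemoglobin and 13 liver genes in each library, strain in red, no strain in blue and film in grey; the first 3 panels use TMM-scaled CPM and the liver panel CPM of the unscaled library total. The no-strain libraries are the highest for developing muscle and liver genes and the lowest for hemoglobin. The non-coding gene H19 leads the developing muscle sum, at 1061, 1300 and 1060 CPM in the no-strain libraries. Under strain H19 stood at 689, 378, 998 and 803 CPM, and under film at 483 to 726 CPM. The order in that panel is therefore not one of muscle protein genes alone.

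Papln was the gene with the smallest p among those higher under strain. Papln (ENSMUSG00000021223, chr12:83763634-83792382, GRCm38) stood at 5.17, 4.77, 5.10 and 4.74 CPM under strain, at 2.48, 2.62 and 1.67 CPM without it and at 7.15 to 10.8 CPM under film. The 3 groups did not overlap, and strain lay between the other two. The log2 fold change was 1.13 ± 0.18 (SE), with an interval in linear terms of 1.66-fold to 2.88-fold (edgeR adjusted p 0.402; DESeq2 adjusted p 0.000200). It lay between 0.96 and 1.25 when any 1 patch library was left out, and 1.53 would have been needed for a call of this gene alone. Efemp1, a matrix fibulin, was the other member of the 30 matricellular and ADAMTS-like genes with no overlap on the higher side, at 84.7, 89.4, 76.5 and 207 CPM against 61.4, 53.6 and 55.9 CPM (1.00 ± 0.41; edgeR adjusted p 0.872). Strain replicate 4 was far above the other 3 and within the film range of 114 to 304 CPM, and without it the log2 fold change was 0.55. Thbs4, a thrombospondin of muscle and tendon, had -0.94 ± 0.32 with overlap (adjusted p 0.872), and -0.48 without no-strain replicate 3. Postn, periostin, is made by activated fibroblasts and had the most counts of the contractile and myofibroblast list. It had a log2 fold change of -0.30 (-0.86 to 0.25). The median of the 30 matricellular and ADAMTS-like genes was 0.01. Of these, 3 were at an unadjusted p under 0.05 on the higher side (2.81% of all genes) and 1 on the lower side (2.8%).

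Other genes with higher levels under strain were spread over functions. Acss3, a mitochondrial acyl-CoA synthetase, stood at 2.48, 2.84, 1.60 and 2.20 CPM against 0.990, 1.24 and 0.976 CPM, without overlap (1.08 ± 0.21; edgeR adjusted p 0.682). A share of 33.9% of its exon sequence overlaps Ppfia2. Mill2, a class I-like MHC gene, stood at 9.94, 10.1, 10.3 and 10.0 CPM against 6.53, 8.15 and 5.72 CPM. The strain values were nearly equal and all above the no-strain values (0.57 ± 0.14; adjusted p 0.872). Acyp1, an acylphosphatase, had 0.52 ± 0.13, Aknad1 0.67 ± 0.16 and the non-coding gene Ctcflos 1.44 ± 0.36, all without overlap and with adjusted p 0.872. In each of these 5 genes the median of the film libraries lay at or above the mean of the strain libraries.

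**Figure D5:**
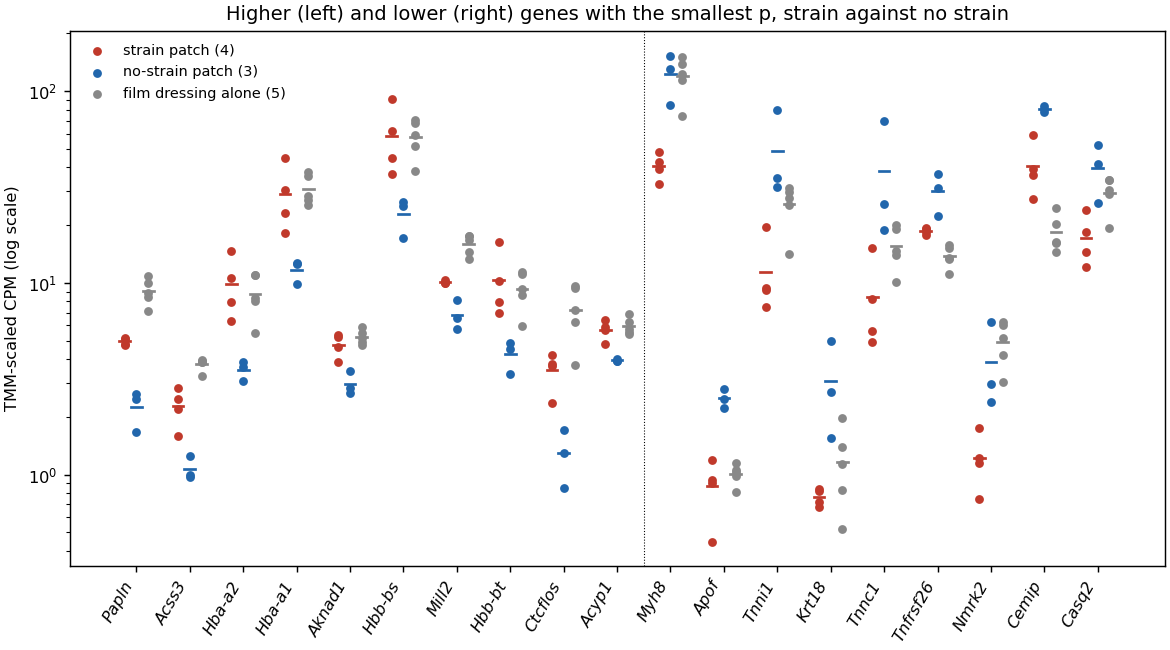
TMM-scaled CPM (log scale) of the higher genes (left of the dotted line) and lower genes (right) with the smallest p; points are libraries, bars are group means. All genes shown separate the 4 strain from the 3 no-strain libraries, as a choice by smallest p favours.

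The 20 genes with the smallest p, 10 in each direction, had absolute log2 fold changes from 0.52 to 2.16. None overlapped between the groups, and 16 of the 20 were DESeq2 calls. These values chose the genes, so they are a description only. With each patch library left out in turn, 14 to 20 of them stayed among the first 100 genes by p and 20 of 20 among the first 500. For 9 of the 20 the strain mean lay between the no-strain and the film mean, as it did for 51.6% of all genes tested.

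Metalloproteinases cut the matrix and open the way for migrating keratinocytes. Of 23 genes of proteases and inhibitors, 6 were at an unadjusted p under 0.05 on the lower side (2.8% of all genes). On the higher side was 1, the inhibitor Timp3 (2.81%). Bounded were 14 (76% of all genes), and edgeR called 0 and DESeq2 1 (0.15% of all genes). The median was -0.13 and ran from -0.21 to -0.06 when 1 library was left out. Mmp10, a stromelysin of migrating keratinocytes, stood at 9.89, 6.80, 6.00 and 11.9 CPM under strain and 8.82, 38.4 and 95.2 CPM without it. No-strain replicate 1 lay within the strain range, and the log2 fold change of -2.46 ± 0.57 (edgeR adjusted p 0.872) became -1.45 without no-strain replicate 3. Mmp13, a fibrillar collagenase, stood at 231, 217, 166 and 340 CPM against 254, 702 and 921 CPM, again with no-strain replicate 1 at the strain level (-1.39 ± 0.38; adjusted p 0.872). Mmp8, the neutrophil collagenase, split the same way, at 17.4, 19.4, 13.4 and 18.4 CPM against 17.4, 66.4 and 48.5 CPM (-1.36 ± 0.40). Mmp2, the gelatinase with the most counts in the list, had 0.03 (-0.53 to 0.60). Mmp10, Mmp13 and Mmp8 thus each had no-strain replicates 2 and 3 above the other 5 patch libraries.

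A hyaluronan turnover gene and a TNF receptor family gene were among the 10 lower genes. Cemip, which takes part in hyaluronan breakdown, stood at 39.2, 27.3, 58.8 and 36.7 CPM under strain, at 77.9, 83.6 and 80.9 CPM without it and at 14.5 to 24.4 CPM under film. The 3 groups did not overlap, and strain lay between the others (-0.996 ± 0.23; edgeR adjusted p 0.872). Tnfrsf26, a member of the TNF receptor family, stood at 18.3, 19.1, 17.8 and 19.4 CPM against 22.2, 31.3 and 37.1 CPM (-0.70 ± 0.16; adjusted p 0.872). Krt18 stood at 0.845, 0.675, 0.818 and 0.719 CPM against 2.70, 1.54 and 4.97 CPM (-1.996 ± 0.44), and Nmrk2, a nicotinamide riboside kinase of muscle, had -1.65 ± 0.38, both with adjusted p 0.872 and no overlap.

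TGF-beta, BMP and WNT genes held a few members near the threshold among many that were bounded. Of 30 TGF-beta and BMP genes 26 were bounded (76% of all genes) and 0 were called (median -0.08). At an unadjusted p under 0.05 was 1 on the higher side (2.81% of all genes) and 1 on the lower side (2.8%). Grem1, a secreted BMP antagonist, stood at 103, 46.1, 46.5 and 68.1 CPM under strain and 78.5, 227 and 225 CPM without it, with overlap through strain replicate 1 (-1.42 ± 0.40; edgeR adjusted p 0.872). Bmp7, a BMP ligand, stood at 33.2, 31.9, 23.7 and 24.97 CPM against 20.6, 22.7 and 14.8 CPM, without overlap (0.55 ± 0.17; adjusted p 0.872). Of 31 WNT genes 17 were bounded, 4 were at an unadjusted p under 0.05 on the higher side (2.81% of all genes) and 2 on the lower side (2.8%). The median was 0.21, 0.08 without either no-strain replicate 3 or strain replicate 4, and 0.13 without strain replicate 3. Wif1, a WNT inhibitor, stood at 4.67, 7.65, 3.70 and 2.25 CPM against 2.12, 2.10 and 1.35 CPM (1.30 ± 0.37). Dkk2, a WNT antagonist, stood at 10.8, 8.73, 10.3 and 16.2 CPM against 5.94, 8.54 and 6.83 CPM (0.70 ± 0.22). Neither overlapped, but the nearest values differed by little. The ligand gene Wnt5a had -0.65 ± 0.20, and Ctnnb1, beta-catenin, -0.09 (-0.30 to 0.13).

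Cell cycle genes were all bounded. All 25 had intervals within 1 log2 unit (76% of all genes tested), and 24 had positive values (52.2% of all genes tested). On the higher side, 3 were at an unadjusted p under 0.05 (2.81% of all genes), and 0 of 25 were called (median 0.18). Mki67, a proliferation marker singled out after its values were seen, stood at 111, 111, 93.8 and 69.8 CPM under strain and 80.5, 78.3 and 82.5 CPM without it. Strain replicate 4 lay below all no-strain libraries, and the log2 fold change was 0.26 (-0.07 to 0.60). Mcm7, of the replication helicase, had 0.24 ± 0.10, Kif20a, a kinesin of dividing cells, 0.34 ± 0.14 and Ccna2, cyclin A2, 0.28 ± 0.12, all with edgeR adjusted p 0.872. Between 12.5% and 29.3% of the exon sequence of these 3 genes overlaps neighbouring genes. The list median was 0.30 with strain replicates 1 and 2 alone and 0.04 with replicates 3 and 4 alone.

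Fewer genes of the differentiation and wound-activated keratinocyte lists were bounded than of the basal list. Bounded genes numbered 12 of 15 basal and 6 of 20 differentiation genes, against 76% of all genes tested. None of 15 basal and none of 20 differentiation genes were at an unadjusted p under 0.05, with medians of 0.08 and 0.22. Krt14, the basal keratin, had 0.32 (-0.38 to 1.02). Krt1, the keratin of the first differentiated layers, stood at 3724, 3664, 3022 and 2760 CPM under strain and 4935, 2794 and 790 CPM without it, so that no-strain replicate 3 alone was low (0.21, -0.75 to 1.18). Without that library the median of the differentiation list was -0.21. Of 18 wound-activated keratinocyte genes 5 were bounded. Slpi, a secreted protease inhibitor, was the only member at an unadjusted p under 0.05, on the lower side (2.8% of all genes). It had -0.85 ± 0.34 (edgeR adjusted p 0.872), and the median of the list was -0.22. That median was 0.21 with strain replicates 1 and 2 alone and -1.03 with replicates 3 and 4 alone.

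Neutrophil genes had a negative median of -0.73 but the widest intervals of the immune lists. Of 25 genes of neutrophils and acute inflammation, 20 had negative values (47.8% of all genes), 6 were at an unadjusted p under 0.05 on the lower side (2.8% of all genes), 1 was bounded and 0 were called. Retnlg, a resistin-like gene of neutrophils, stood at 3.83, 4.77, 9.69 and 6.57 CPM under strain, at 16.1, 10.6 and 24.0 CPM without it and at 1.57 to 3.74 CPM under film. Strain lay between film and no strain with no overlap (-1.44 ± 0.37; edgeR adjusted p 0.872). Cxcl1, a chemokine that attracts neutrophils, stood at 17.1, 42.9, 9.46 and 13.4 CPM against 44.9, 43.1 and 108 CPM, and Il1a, an epithelial alarmin, at 13.8, 11.9, 7.32 and 10.2 CPM against 25.2, 23.7 and 18.2 CPM. Both were named after their values were seen. Il1a was a DESeq2 call and had an edgeR log2 fold change of -1.05 ± 0.25. S100a9, the calgranulin with the most counts in the list, split the strain group, at 4761 and 3096 CPM in strain replicates 1 and 2 and 337 and 633 CPM in replicates 3 and 4, against 2769, 934 and 2057 CPM without strain (0.20, -1.61 to 2.01). The list median was -0.38 without no-strain replicate 3.

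Macrophage, T cell and mast cell genes held few members near the threshold. Of 20 macrophage genes 19 had negative values (47.8% of all genes), 0 were at an unadjusted p under 0.05 and 16 were bounded. The median was -0.16, but -0.04 without no-strain replicate 3, -0.30 without strain replicate 2 and -0.29 without no-strain replicate 2. Of 18 genes of type 2 macrophage activation, 1 lay at an unadjusted p under 0.05 in each direction. The shares of all genes were 2.81% on the higher and 2.8% on the lower side. Retnla, a resistin-like gene induced by interleukin 4, stood at 1.84, 1.39, 1.36 and 1.15 CPM under strain, 1.04, 0.772 and 0.372 CPM without it and 28.8 to 47.0 CPM under film (0.97 ± 0.31; edgeR adjusted p 0.872). The patch groups did not overlap and both lay far below film. Il4ra, the interleukin 4 receptor chain, had -0.59 ± 0.20 (adjusted p 0.872), and -0.28 without no-strain replicate 3, its highest library. None of 23 T and NK cell genes were at an unadjusted p under 0.05. Of 12 mast cell genes 1 was, on the lower side (2.8% of all genes), the histamine synthesis enzyme gene Hdc (-0.75 ± 0.30). Hdc was the lowest of the mast cell list, in which 10 of 12 had positive values (52.2% of all genes) and the median was 0.28. None of 25 endothelial genes were at an unadjusted p under 0.05, and 24 of the 25 were bounded. Pecam1, an endothelial adhesion molecule, had -0.01 (-0.28 to 0.26).

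Adipocyte genes leaned higher. Of 25, 5 were at an unadjusted p under 0.05 (2.81% of all genes) and 5 had no overlap (2.85% of all genes) on the higher side, 13 were bounded and 0 were called. The median was 0.33, but 0.13 without no-strain replicate 3 and 0.11 without strain replicate 3. Cidec, a lipid droplet protein of fat cells, stood at 86.1, 56.6, 98.1 and 45.5 CPM under strain, 24.5, 37.7 and 21.4 CPM without it and 104 to 262 CPM under film (1.36 ± 0.35; edgeR adjusted p 0.872). Strain lay between the other groups. Lep, leptin, stood at 89.1, 61.9, 78.7 and 41.7 CPM against 20.9, 37.8 and 26.3 CPM (1.26 ± 0.40). Plin1, perilipin 1, had 1.06 ± 0.37 and the adipsin gene Cfd 1.51 ± 0.58. Scd1, the desaturase with the most counts in the list, had 0.39 (-0.49 to 1.28). The summed level of the list was 4303 to 7490 CPM under strain, 3823 to 5245 without it and 6464 to 11976 under film, so the patch groups overlapped. The amount of fat in the samples was not measured and its part was not tested.

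Pigment genes differed within the strain group. Of 17 genes of melanocytes and hair follicles, 5 were at an unadjusted p under 0.05 on the higher side (2.81% of all genes) and 3 were bounded. The median was 0.73, and 1.39 without no-strain replicate 2. Tyrp1, a melanin synthesis enzyme, stood at 14.4, 21.3, 5.49 and 4.55 CPM in strain replicates 1 to 4 and at 2.12, 7.04 and 2.18 CPM without strain (1.59 ± 0.59; edgeR adjusted p 0.872; 2.40 without no-strain replicate 2). Strain replicates 1 and 2 were above all other libraries and replicates 3 and 4 among the no-strain values. The list median was 0.84 with replicates 1 and 2 alone and 0.19 with replicates 3 and 4 alone. Serpinb3d, Cd209f and Il19, among the genes with the largest estimates at 5 CPM or more, varied as much within groups. Il19, an epithelial cytokine, stood at 4.17, 2.93, 0.0779 and 0.288 CPM under strain and at 25.8, 0.815 and 11.7 CPM without it (-2.79 ± 1.11; adjusted p 0.872), which was -1.76 without no-strain replicate 1.

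Liver transcripts, which include the DESeq2 calls Apof and Slc10a1, differed between the groups and with the numbers in the sample titles. The 13 liver genes, chosen after their values were seen and given without a test, are led by Alb, serum albumin. Alb had 824 and 1007 counts in strain replicates 1 and 2, 2444 and 2359 in replicates 3 and 4, and 4407, 4412 and 3723 in the no-strain libraries. The sum of the 13 was 87.5 and 91.0 CPM of the unscaled library total in strain replicates 1 and 2, 188 and 217 in replicates 3 and 4, and 366, 361 and 314 in the no-strain libraries. In the film libraries it was 98.3, 80.7, 9.86, 6.28 and 87.7. No strain library reached the lowest no-strain library, and the strain group fell into 2 pairs. The low pair had title numbers 7 and 10 and the other pair 14 and 15, next to the no-strain libraries at 11, 12 and 13. No source used here says what these numbers stand for, and their part was not tested. The ratio of Alb to Apoa1 counts, 2 abundant liver transcripts, lay between 5.53 and 6.26 in all 7 patch libraries.

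Apof, apolipoprotein F, stood at 0.447, 0.900, 0.934 and 1.20 CPM under strain and 2.48, 2.79 and 2.23 CPM without it, without overlap (-1.51 ± 0.26; edgeR adjusted p 0.402). The bile acid transporter gene Slc10a1, named after its values were seen, had -1.55 ± 0.36. In film replicates 3 and 4, where Alb had 24 and 21 counts, Apof stood at 1.04 and 0.808 CPM, near the strain level. With the liver genes as a covariate, the log2 fold change of Apof was -1.37. Apof and Slc10a1 are themselves among the genes summed in that covariate, so Apof was adjusted in part by its own level. The same covariate left Myh8 at -1.66 and Papln at 1.15, and no gene was called. The part of the liver transcripts in any result was not tested.

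Of the 28 genes called by DESeq2, 5 belonged to the developing muscle list, 4 to the hemoglobin list, 1 each to the metalloproteinase and matricellular lists, and 17 to no list. The 5 with the smallest p on the lower side included Myh8, Apof, Tnni1 and Myl3, and those on the higher side were Papln, Hba-a1, Hba-a2, Hbb-bs and Acss3. Its log2 fold change for Myh8 was -1.60 and for Papln 1.12, close to the edgeR values. DESeq2 gave no adjusted p for 5 genes.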

How the data were processed

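Poly(A)-enriched RNA from 12 day 10 wounds was sequenced; 7 libraries form this comparison. Per the submitters' processing notes, the authors used bcl2fastq 2.17, cutadapt, STAR, featureCounts and GRCm38. Each deposited file lists unnormalized read counts by Ensembl gene, per the file headers; the annotation release, strand setting and multi-mapping rule are not given in the sources used here. Symbols and coordinates come from GENCODE on GRCm38 (54079 of 54232 identifiers matched).

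Genes were filtered with filterByExpr (minimum count 10, minimum total 15). edgeR 4.0.16 (R 4.3.3) fitted all 12 libraries with TMM factors and robust quasi-likelihood dispersion, with a threshold of 0.05 on Benjamini-Hochberg adjusted p. The standard error is the log2 fold change divided by the root of F, and 95% intervals use the t distribution. Intervals and floors of 3 counts cover these samples only. The procedure was tested on simulated data. Alternatives used DESeq2 1.42.0, limma 3.58.1, other scaling, filters, covariates and left-out libraries.

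Named genes were the 10 genes of smallest p in each direction at 1 CPM or more, the 5 in each direction with the largest change at 5 CPM or more, up to 3 members per list at an unadjusted p under 0.05 with the most abundant member, and the 5 DESeq2 calls in each direction with the smallest p. Predicted and clone names were left out, and some genes that meet the rule are not reported here. The comparison, the 28 gene lists and this rule were chosen with earlier results of these data known. The libraries carry a letter and a number in their titles, which no source used here explains.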

Additional observations from a re-analysis of the deposited data

Results flagged for a closer look

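Among 118 levels screened in the 4 strain libraries, 3 held a library far from the other 3. For independent, unselected levels about 5.9 would be counted. Many of the genes screened were chosen by small p, and the lists share genes with them, so 5.9 is a rough guide only. The log2 CPM of Slpi, a secreted protease inhibitor, was 5.09 in strain replicate 3, with the next library at 6.19. The log2 CPM of Efemp1, a matrix fibulin, was 7.69 in strain replicate 4, with the next at 6.48. The mean log2 CPM of the focal adhesion and MRTF/SRF list was 6.95 in strain replicate 4, with the next at 6.84.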

How the results depend on the processing

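The number of called genes was 0 under every alternative chosen with the design except DESeq2, which called 28, and in each of the 7 fits that left out 1 patch library. Of the 3 alternatives added after seeing the data, the one with strain replicates 1 and 2 alone called 2, and the others called 0. The count at an unadjusted p under 0.05 was 628 with a filter at 5 CPM, where fewer genes were tested, 1602 with strain replicates 1 and 2 alone, and 600 to 1372 with 1 library left out, lowest without no-strain replicate 3; the cause was not tested. Genes without overlap numbered 4341 and 3893 with strain replicates 1 and 2 or 3 and 4 alone and 1592 to 2830 with 1 library left out, since fewer samples overlap less often. The number of bounded genes lay between 12937 and 13737 in those fits. The smallest adjusted p was 0.0726 without no-strain replicate 1, 0.226 with the title number as a covariate, 0.999 with the fast muscle covariate and 1.00 in limma-voom. None of the 62 named genes at an unadjusted p under 0.05 crossed 0 under any alternative, whereas 18 of the other 26 named genes did under at least 1. The 62 were set apart by their p in the main fit, and the alternatives reuse its libraries. A kept sign was therefore favoured in advance and is a description only. The 19 values of named genes that passed the threshold were all DESeq2 values. List medians moved by more than the replicate spread in 13 of 588 values, on 9 of 28 lists, and 14 lists had medians on both sides of 0 among the alternatives. No paired analysis was possible because the labels number no replicates within the groups: the numbers used here follow the order of the samples and pair nothing, and the title numbers are not shared between groups. Depth and the 7 libraries limit low genes most: from 1 to 5 CPM a gene needed a median change of 4.87-fold to be called alone.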
